A study of Mus musculus with 23 samples.

Results

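The comparison described here is that of loaded tibiae from mice given L-BAIBA with loaded tibiae from vehicle-treated mice after 2 weeks of sub-optimal loading. Its members were chosen by the labels of the libraries, as 3 L-BAIBA loaded and 3 vehicle loaded libraries, 6 of the 23 libraries of the series. In both groups, the right tibia of male C57BL/6 mice (wild type), aged 5 months, was compressed along its axis at 8.25 N in 3 bouts a week for 2 weeks, and bone was taken 24 hours after the last bout. The L-BAIBA group drank water with L-BAIBA at 100 mg per kg per day, begun 3 days before the first bout. The vehicle group drank plain water. The left tibiae of such mice gave nonloaded libraries (3 from L-BAIBA and 3 from vehicle mice), and a separate experiment loaded the tibia in a single bout after 5 days of L-BAIBA or plain water. Each library is the pooled RNA of 2 mice, so a library is not an animal. The L-BAIBA loaded and nonloaded libraries came from the same 3 mouse pools, and 2 of the 3 vehicle pools also gave both tibiae.

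Contracting muscle releases L-β-aminoisobutyric acid (L-BAIBA), which arises from valine, and bone cells are among the cells that respond to it. Osteocytes, the cells buried in mineralized matrix, sense strain and pass the signal on to osteoblasts at the surface through Wnt and BMP ligands, prostaglandins and the Wnt antagonist sclerostin. Load that forms little bone by itself is called sub-optimal. The comparison asks what L-BAIBA adds to such load in the RNA of osteocyte-enriched cortical bone, that is, of bone without its ends and marrow from which surface cells were digested with collagenase and EDTA.

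The osteocyte markers *Dmp1*, *Phex*, *Mepe*, *Sost* and *Pdpn* were present in all 6 libraries, with *Dmp1*, a matrix protein of mineralization, at 7940, 1230 and 1900 CPM (counts scaled to library size, with TMM factors for composition) in L-BAIBA loaded 1, 2 and 3, against 3940, 9280 and 1600 in vehicle loaded 1, 2 and 3. Marrow RNA remained, since *S100a8*, a granule protein of neutrophils, stood at 3230, 3240 and 3480 CPM in L-BAIBA loaded bone and at 2510, 2050 and 2690 in vehicle loaded bone. The muscle genes *Acta1* and *Ckm* were not among the genes tested. Counts assigned to genes were 6368289, 16042501 and 15194309 in the L-BAIBA loaded libraries and 16493644, 17489087 and 14819597 in the vehicle loaded libraries, so L-BAIBA loaded 1 is the least precise. The libraries did not sort by treatment. L-BAIBA loaded 2 and 3 had a rank correlation of 0.994 with each other and of 0.994 each with vehicle loaded 3, whereas L-BAIBA loaded 1 was closest to vehicle loaded 2 (0.985) and correlated at 0.956 and 0.961 with L-BAIBA loaded 2 and 3. Many gene groups below follow this division and not the treatment. By the sample titles, L-BAIBA loaded 1 and vehicle loaded 1 and 2 came from the lower-numbered mice. L-BAIBA loaded 2 and 3 and vehicle loaded 3 came from the higher-numbered mice. The division is thus uneven between the treatments. The labels do not say what the mouse numbers stand for, and their part in the values below was not tested. In bulk RNA, fewer cells of a type and less RNA per cell cannot be told apart.

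Across 15576 genes, no gene passed an adjusted p under 0.05 between L-BAIBA loaded and vehicle loaded tibiae (edgeR quasi-likelihood test, Benjamini-Hochberg, smallest adjusted p = 1.0), and none passed with DESeq2, edgeR's likelihood ratio test or limma. At an unadjusted p under 0.05 there were 233 genes (1.5% of those tested, where 5% is the nominal share), 55 higher (0.353%) and 178 lower (1.14%) in L-BAIBA loaded bone. The count was 291 with DESeq2, 274 with the likelihood ratio test and 165 with limma. Every difference below therefore failed the adjusted test. Genes are called higher or lower where the unadjusted p was under 0.05, which is the p meant where none is qualified, and are otherwise given as values. A value after ± is the SE of a log2 fold change. Of the genes tested, 7554 (48.5%) had a positive and 8022 (51.5%) a negative log2 fold change, with a median of -0.01.

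With an absolute log2 fold change over 1 added, 38 genes remained (0.244% of those tested), 8 higher (0.0514%) and 30 lower (0.193%) in L-BAIBA loaded bone. All but 2 of them were read at a mean under 5 CPM over the 6 libraries, and 16 under 1 CPM. The median was 1.23 CPM, against 22.7 CPM over all genes, and the highest mean was 8.56 CPM, for *Prg4*. In 28 of the 38 the groups did not overlap, as in 1219 of all genes (7.83%), of which 544 (3.49%) had L-BAIBA loaded bone above and 675 (4.33%) below. The count hung on single libraries. It was 291 without L-BAIBA loaded 1 (11 higher and 280 lower), 114 without vehicle loaded 3 (35 higher and 79 lower) and 17 without vehicle loaded 2 (4 higher and 13 lower). Without L-BAIBA loaded 2 it was 26, of which 17 were higher and 9 lower. Still no gene passed an adjusted p under 0.05 in any of these, where the smallest was 0.43, without L-BAIBA loaded 1.

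**Figure D1:**
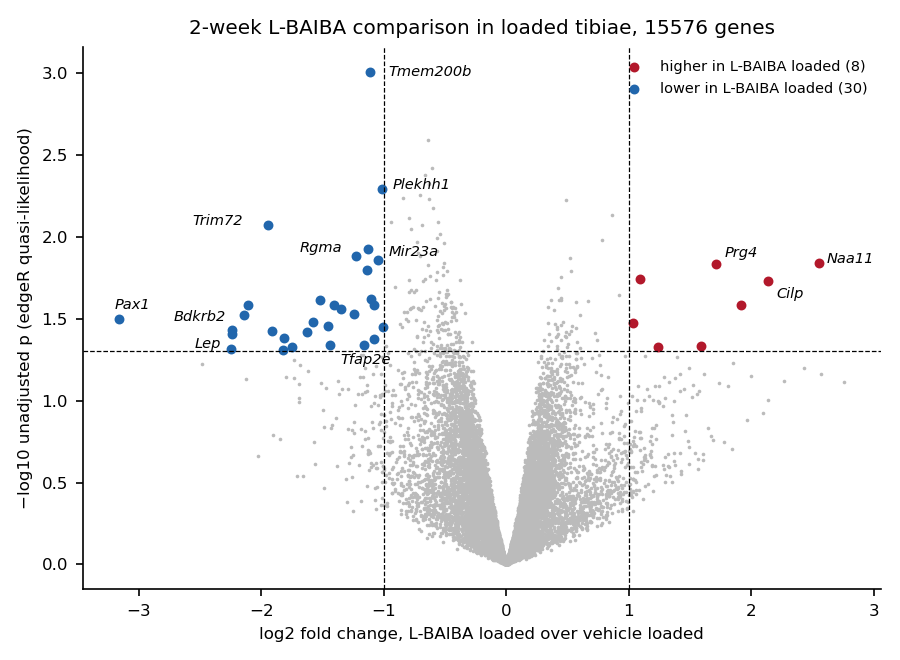
Log2 fold change of L-BAIBA loaded over vehicle loaded bone (x axis) against -log10 of the unadjusted p of edgeR's quasi-likelihood test (y axis), a point a gene, for 15576 genes. Dashed lines mark a p of 0.05 and log2 fold changes of -1 and 1, and past them lie 8 genes higher (red) and 30 lower (blue) in L-BAIBA loaded bone, none of which passed the adjusted test.

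*Prg4* and *Cilp*, both matrix genes of joint surface and connective tissue, were higher in L-BAIBA loaded bone. *Prg4* encodes lubricin, the glycoprotein that lubricates cartilage and tendon surfaces, and lies on chromosome 1 (150449412 to 150466165, minus strand, mm10). It stood at 7.49, 7.78 and 23.9 CPM in L-BAIBA loaded 1, 2 and 3, against 5.13, 4.15 and 2.79 CPM in vehicle loaded 1, 2 and 3. All 3 L-BAIBA libraries lay above all 3 vehicle libraries, and L-BAIBA loaded 3 was far above the other L-BAIBA libraries. The log2 fold change was 1.71 ± 0.61, and 0.94 (p over 0.05) without L-BAIBA loaded 3. It was between 1.52 and 2.00 without any other loaded library.

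*Cilp* encodes cartilage intermediate layer protein, a matrix protein that binds TGFβ, on chromosome 9 (65265180 to 65280605, plus strand). It stood at 2.23, 5.48 and 4.0 CPM in L-BAIBA loaded bone, against 0.483, 1.38 and 0.843 CPM in vehicle loaded bone. Here too the groups did not overlap. The log2 fold change was 2.13 ± 0.80, with a range of 1.82 to 2.58 when a loaded library was left out, and it missed p under 0.05 without vehicle loaded 1 or L-BAIBA loaded 2. These values rest on 14, 88 and 62 reads in the L-BAIBA loaded libraries and on 8, 23 and 13 in the vehicle loaded libraries.

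The other genes of the superficial cartilage, tendon and periosteum matrix had no common direction. Of 26 tested genes in that list, 15 were positive and 11 negative (median 0.07), and *Prg4* and *Cilp*, which the study had itself singled out in these samples, were the only members at p under 0.05. *Aspn*, asporin, had 69.2, 11.8 and 15.9 CPM in L-BAIBA loaded bone and 13, 24.3 and 14.7 in vehicle loaded bone, so that its log2 fold change of 0.86 ± 0.57 came from L-BAIBA loaded 1 and was -0.33 without it. *Omd*, osteomodulin, a proteoglycan of mineralized matrix, had 74.3, 35.9 and 43.2 CPM in L-BAIBA loaded bone, against 19.5, 54.1 and 32.9 CPM in vehicle loaded bone (0.52 ± 0.35). *Tnmd*, the tendon marker tenomodulin, was at -0.54 ± 0.42 and *Postn*, periostin of the periosteum, at -0.18 ± 0.34. Summed over the list, L-BAIBA loaded 1, 2 and 3 held 2900, 1900 and 1840 CPM, against 1670, 2730 and 2070 CPM in vehicle loaded 1, 2 and 3, with no member at 0 throughout a group. The part of any residual cartilage or tendon in *Prg4* and *Cilp* was not tested.

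Among hyaline cartilage genes, *Ihh*, the growth plate hedgehog ligand, was lower at p under 0.05, with 16.1, 8.53 and 17.9 CPM in L-BAIBA loaded bone, against 25.3, 38.3 and 16.1 CPM in vehicle loaded bone (-0.91 ± 0.35). The groups overlapped through vehicle loaded 3, and without vehicle loaded 2 the value was -0.55 (p over 0.05), and -0.62 (p over 0.05) without L-BAIBA loaded 2. The cartilage collagen *Col2a1* (-0.38 ± 0.39) and the hypertrophic cartilage collagen *Col10a1* (0.99 ± 1.19) did not pass. *Col10a1* had 3.19, 10.5 and 13.3 CPM in L-BAIBA loaded bone and 0.362, 1.56 and 12.1 CPM in vehicle loaded bone. *Acan*, the cartilage proteoglycan, had 5.26, 11 and 12.2 CPM in L-BAIBA loaded bone, against 1.33, 4.88 and 30.7 CPM in vehicle loaded bone. Vehicle loaded 3 held the most of both genes in its group, and without it the list's median of -0.17 over 20 genes became 0.88.

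Of the other genes that were higher in L-BAIBA loaded bone, 5 are described here, read at 0.162 to 1.41 CPM in the vehicle group on average. *Naa11*, a testis-enriched N-terminal acetyltransferase gene, had 2.07, 0.498 and 0.709 CPM in L-BAIBA loaded bone and 0.181, 0.0602 and 0.259 CPM in vehicle loaded bone (2.55 ± 0.90). The non-coding transcript *E230029C05Rik* had 3.19, 3.61 and 2.26 CPM in L-BAIBA loaded bone and 1.09, 1.14 and 2.01 CPM in vehicle loaded bone (1.09 ± 0.40). In both the groups did not overlap, but the counts are small, as *Naa11* had 13, 8 and 11 reads in the L-BAIBA loaded and 3, 1 and 4 in the vehicle loaded libraries.

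*Khdc1a*, a KH domain gene known from oocytes, had 1.12, 0.373 and 0.580 CPM in L-BAIBA loaded bone, against 0.241, 0.181 and 0.0648 CPM in vehicle loaded bone (1.92 ± 0.76). *Adrb1*, the β1-adrenergic receptor, had 1.59, 0.996 and 0.644 CPM in L-BAIBA loaded bone and 0.422, 0.301 and 0.584 CPM in vehicle loaded bone (1.24 ± 0.56), without overlap. In *2810047C21Rik1* the groups overlapped (1.59 ± 0.72), and its value was 0.75 (p over 0.05) without L-BAIBA loaded 1. Each of these 5 genes missed p under 0.05 without vehicle loaded 2. So did *E230029C05Rik*, *Adrb1* and *2810047C21Rik1* without vehicle loaded 1, *Khdc1a* without vehicle loaded 3, and *E230029C05Rik* without L-BAIBA loaded 2. *Naa11* and *Khdc1a* were not tested without L-BAIBA loaded 1 or L-BAIBA loaded 3, where they fell under the filter on low counts.

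Of the 30 lower genes, *Tmem200b* had the smallest p of the comparison. It encodes a transmembrane protein of little known function, on chromosome 4 (131921771 to 131923140, plus strand). L-BAIBA loaded 1, 2 and 3 had 4.46, 3.42 and 3.16 CPM, against 8.69, 8.55 and 6.29 CPM in vehicle loaded 1, 2 and 3. The highest L-BAIBA library was thus below the lowest vehicle library, and the log2 fold change of -1.11 ± 0.26 lay between -1.25 and -0.99 whichever loaded library was left out, with p under 0.05 in each.

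*Plekhh1*, a gene for a protein with pleckstrin homology and FERM domains, had 2.55, 2.18 and 2.51 CPM in L-BAIBA loaded bone and 4.22, 6.38 and 3.96 CPM in vehicle loaded bone (-1.01 ± 0.30). *Wscd1*, a sulfotransferase-like gene, had 1.75, 2.30 and 4.0 CPM in L-BAIBA loaded bone and 7.0, 6.32 and 4.73 CPM in vehicle loaded bone (-1.13 ± 0.39). Along with *Tmem200b* and *Mir23a*, these were the 4 genes of the 38 that kept p under 0.05 whichever loaded library was left out. The 2 genes that did not keep it in any such fit were *Adrb1*, which fell under the filter on low counts in 4 of the 6 fits, and *Kcnmb4*. No gene of the 38 changed sign in any alternative in which it was tested.

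The loci of *Mir23a*, *Mir27a* and *Mir24-2* lie within 404 bases on chromosome 8 and are cut from a shared primary transcript. In mouse and human cells miR-23a, miR-27a and miR-24 have been linked to the control of osteoblast differentiation and muscle mass. The libraries hold poly(A) RNA, so reads at these loci come from longer transcripts that span the hairpins and do not measure the mature miRNAs. The 3p sequences of the 3 hairpins are shown because the reads described next lie over them, and *Mir27a* and *Mir24-2* were added to *Mir23a* after their values were seen. Capitals mark the seed, bases 2 to 8, which pairs with target mRNAs, and the sequences are those of RefSeq on GRCm38.p6, 5′ to 3′, plus strand.
mmu-miR-23a-3p (chr8:84208563-84208583): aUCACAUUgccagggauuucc
mmu-miR-27a-3p (chr8:84208727-84208747): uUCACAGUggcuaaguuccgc
mmu-miR-24-3p (chr8:84208875-84208896): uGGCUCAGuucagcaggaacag
All 6 mature sequences of the cluster, 5p arms included, have different seeds.

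At the *Mir23a* hairpin (84208518 to 84208592), L-BAIBA loaded bone had 1.28, 1.49 and 1.93 CPM and vehicle loaded bone had 3.62, 3.31 and 2.98 CPM (-1.05 ± 0.37). At *Mir27a* (84208672 to 84208758) the values were 1.91, 2.30 and 2.51 CPM in L-BAIBA loaded bone and 5.49, 3.91 and 2.98 CPM in vehicle loaded bone (-0.86 ± 0.45). At *Mir24-2* (84208815 to 84208921) they were 6.86, 5.23 and 9.47 CPM in L-BAIBA loaded bone and 17.1, 12.5 and 7.52 CPM in vehicle loaded bone (-0.78 ± 0.30). The groups did not overlap at *Mir23a* and *Mir27a*, although *Mir27a* had p over 0.05, and at *Mir24-2* L-BAIBA loaded 3 exceeded vehicle loaded 3. These 3 values are not independent, since the loci share a transcript. Without vehicle loaded 1, *Mir24-2* was at -0.46 (p over 0.05), and without L-BAIBA loaded 2 at -0.57 (p over 0.05), while *Mir23a* kept p under 0.05 throughout.

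*Trim72*, which encodes MG53, a membrane repair protein of striated muscle, had 0.478, 0.498 and 0.387 CPM in L-BAIBA loaded bone, against 2.71, 1.93 and 0.648 CPM in vehicle loaded bone (-1.95 ± 0.63, and -1.48 with p over 0.05 without vehicle loaded 1). *Rgma*, a BMP co-receptor first known as a repulsive axon guidance molecule, had 0.957, 1.37 and 0.644 CPM in L-BAIBA loaded bone and 1.81, 2.29 and 2.92 CPM in vehicle loaded bone (-1.22 ± 0.43). *Efna3*, the ligand ephrin-A3, had 1.43, 1.12 and 1.35 CPM in L-BAIBA loaded bone and 3.38, 3.07 and 2.08 CPM in vehicle loaded bone (-1.13 ± 0.41). None of these overlapped between the groups. *Rgma* missed p under 0.05 without L-BAIBA loaded 3 or vehicle loaded 3, and *Efna3* without L-BAIBA loaded 2 or vehicle loaded 1.

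The other lower genes with the smallest p were *Mtus2*, a microtubule-associated gene (-1.11 ± 0.43, groups overlapping), the transcript *1700012D01Rik* (-1.52 ± 0.60) and *Fxyd7*, a regulator of the sodium pump (-1.41 ± 0.56). *Fxyd7* had 1.28, 0.560 and 0.838 CPM in L-BAIBA loaded bone, against 2.29, 2.83 and 1.69 CPM in vehicle loaded bone. *Kcnmb4*, a subunit of the large conductance calcium-activated potassium channel, had 1.12, 1.12 and 0.902 CPM in L-BAIBA loaded bone and 1.81, 3.31 and 1.88 CPM in vehicle loaded bone (-1.16 ± 0.53). The groups of *Fxyd7* and *Kcnmb4* did not overlap. Each of the 4 genes missed p under 0.05 without vehicle loaded 2 or L-BAIBA loaded 2, as did *Mtus2* and *Fxyd7* without L-BAIBA loaded 3, *1700012D01Rik* without L-BAIBA loaded 1 and *Fxyd7* without vehicle loaded 1.

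*Bdkrb2*, the bradykinin B2 receptor, and *Tfap2e*, a transcription factor of the AP-2 family, were also lower at p under 0.05 and had been singled out by the study in these samples. *Bdkrb2* (chromosome 12, 105563172 to 105593071, plus strand) had 0.638, 0.187 and 0.387 CPM in L-BAIBA loaded bone, against 2.17, 2.41 and 0.389 CPM in vehicle loaded bone (-2.14 ± 0.88). *Tfap2e* (chromosome 4, 126716003 to 126736269, minus strand) had 0.797, 0.436 and 1.03 CPM in L-BAIBA loaded bone, against 2.35, 3.13 and 0.648 CPM in vehicle loaded bone (-1.44 ± 0.65). In both genes vehicle loaded 3 was as low as the L-BAIBA libraries, so the difference lay in vehicle loaded 1 and 2. Without vehicle loaded 3 *Bdkrb2* was at -2.59 (p under 0.05) and *Tfap2e* at -1.85 (p under 0.05). Without L-BAIBA loaded 2 they were at -1.73 (p over 0.05) and -1.12 (p over 0.05), and without vehicle loaded 2 *Tfap2e* was at -1.0 (p over 0.05). Both kept p under 0.05 in no fit that left out a loaded library other than vehicle loaded 3, and *Bdkrb2* fell under the filter on low counts in 3 such fits.

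*Lep*, the adipocyte hormone leptin, had 0.159, 0.498 and 0.0644 CPM in L-BAIBA loaded bone and 1.39, 1.63 and 0.713 CPM in vehicle loaded bone, without overlap (-2.24 ± 0.98). Without L-BAIBA loaded 3 it was at -1.71, and it missed p under 0.05 also without L-BAIBA loaded 1, vehicle loaded 1 or vehicle loaded 2. The L-BAIBA values rest on 1, 8 and 1 reads. *Plin1*, perilipin of lipid droplets, had 34.9, 6.6 and 3.16 CPM in L-BAIBA loaded bone and 31.7, 48.5 and 12.4 CPM in vehicle loaded bone (-1.13 ± 0.84). The 14 adipocyte genes tested had a median of -0.56, with 12 negative, and *Lep* was the only one at p under 0.05. Their summed level was 3320, 1110 and 727 CPM in L-BAIBA loaded 1, 2 and 3, against 2440, 3080 and 1240 CPM in vehicle loaded 1, 2 and 3, so L-BAIBA loaded 1 held the most, and without it the median was -2.10. The part of adipocyte RNA in the *Lep* value was not tested.

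**Figure D2:**
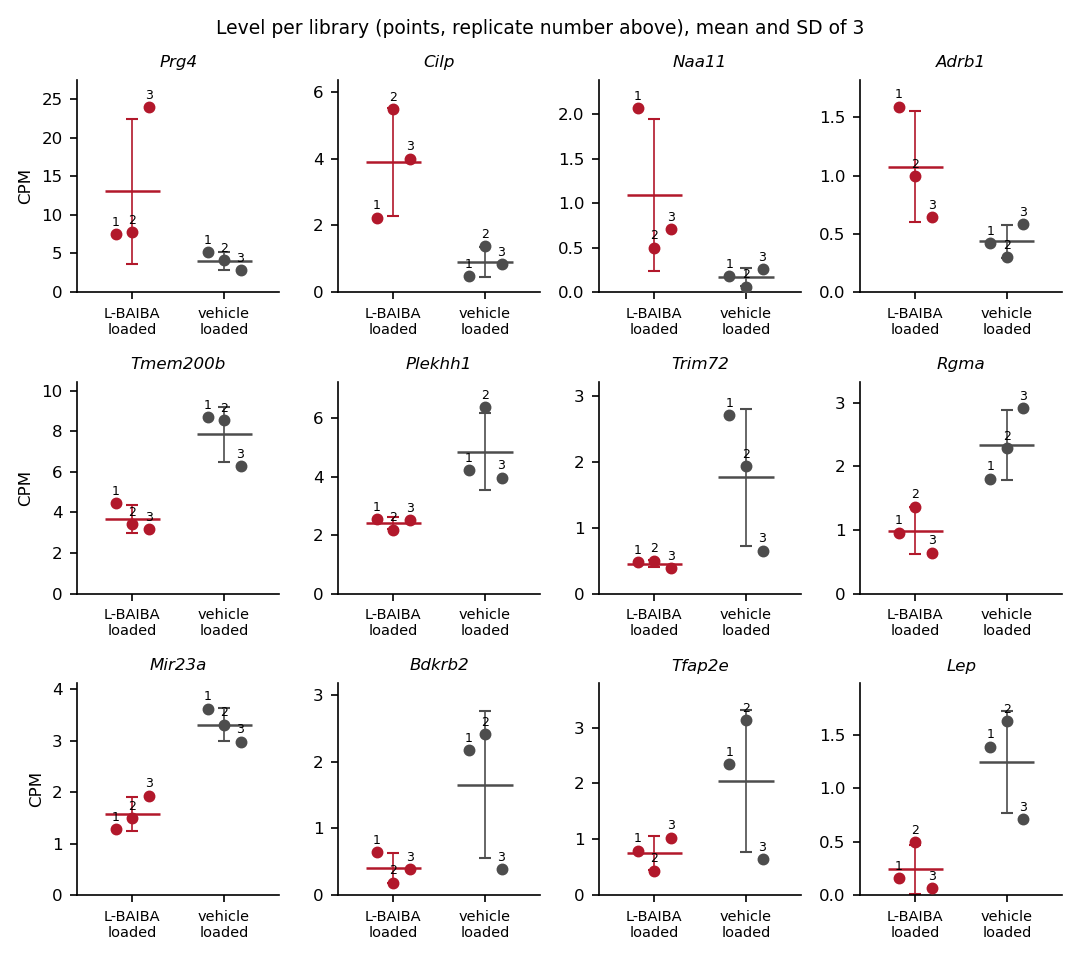
CPM per library (y axis, from 0, a scale for each gene) in L-BAIBA loaded (red, left) and vehicle loaded bone (grey, right) for 12 genes, with replicate numbers, the mean (line) and SD (bar) of 3 libraries. *Prg4* owes its mean of 13.1 CPM largely to L-BAIBA loaded 3 at 23.9 CPM, whereas in *Bdkrb2* and *Tfap2e* vehicle loaded 3 lies with the L-BAIBA libraries.

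Osteocyte genes were read at high levels, and the groups overlapped in each of the 5 markers named above. Of the 15 tested, 13 were negative, with a median of -0.35, and *Phex*, the endopeptidase mutated in X-linked hypophosphatemia, was the only one at p under 0.05. It had 670, 372 and 483 CPM in L-BAIBA loaded bone and 695, 1400 and 469 CPM in vehicle loaded bone (-0.75 ± 0.35). Vehicle loaded 2 was the high library, and without it *Phex* was at -0.20 (p over 0.05), as it was at -0.55 and -0.69 without L-BAIBA loaded 2 or 3. *Sost*, which encodes sclerostin, had 3780, 1650 and 3370 CPM in L-BAIBA loaded bone and 3860, 4640 and 2540 CPM in vehicle loaded bone (-0.32 ± 0.34). *Dmp1* was at -0.42 ± 0.72, *Mepe*, a matrix phosphoglycoprotein, at -0.44 ± 0.35, *Irx5*, a homeobox factor, at -0.59 ± 0.30 and *Fgf23*, the phosphate-lowering hormone of osteocytes, at 0.60 ± 0.34. *Dmp1* changed sign to 0.41 without vehicle loaded 2 and was at -1.65 (p under 0.05) without L-BAIBA loaded 1. The list summed to 19700, 6640 and 10600 CPM in L-BAIBA loaded 1, 2 and 3, against 14000, 25900 and 8790 CPM in vehicle loaded 1, 2 and 3, and its median was -0.66 without L-BAIBA loaded 1 and 0.05 without vehicle loaded 2.

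Of 20 osteoblast and bone matrix genes, 19 were negative, with a median of -0.22. *Sp7*, which encodes the osteoblast transcription factor osterix, was the only one at p under 0.05 (-0.53 ± 0.24), with 171, 97.2 and 123 CPM in L-BAIBA loaded bone and 175, 256 and 134 CPM in vehicle loaded bone, and it was at -0.25 without vehicle loaded 2, with p over 0.05 also without vehicle loaded 1 or L-BAIBA loaded 2 or 3. *Col1a1*, the main bone collagen, had 10600, 23200 and 20600 CPM in L-BAIBA loaded bone and 12600, 21200 and 30900 CPM in vehicle loaded bone (-0.25 ± 0.43). *Bglap*, osteocalcin, was at -0.27 ± 0.29 and *Ibsp*, bone sialoprotein, at 0.12 ± 0.27. In all 4 the groups overlapped.

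No Wnt gene differed at p under 0.05, although most were negative. All 9 Wnt ligands tested had negative values (median -0.23), as did 13 of 16 Wnt antagonists (median -0.37) and 24 of 28 receptors and targets (median -0.24). *Wnt1*, a ligand that drives bone formation, had 57.7, 3.98 and 7.86 CPM in L-BAIBA loaded bone, against 37.3, 72.1 and 4.73 CPM in vehicle loaded bone (-0.77 ± 0.91). *Wnt10b*, another bone-forming ligand, had 64.9, 12.1 and 22.4 CPM in L-BAIBA loaded bone, against 57.9, 121 and 18.8 CPM in vehicle loaded bone (-1.02 ± 0.62). Within either group the libraries of *Wnt1* were more than 10-fold apart, with L-BAIBA loaded 1 among the high ones and vehicle loaded 3 among the low ones. Without L-BAIBA loaded 1 *Wnt1* was at -2.68 (p under 0.05), and without vehicle loaded 2 at 0.09 (p over 0.05).

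The remaining Wnt genes named by the rule were negative with p over 0.05. *Wnt5b*, a non-canonical ligand, was at -0.55 ± 0.33 and *Wnt11* at -0.83 ± 0.62. Among antagonists *Dkk3* was at -0.58 ± 0.29, *Dact2*, an intracellular inhibitor, at -1.02 ± 0.52, and *Notum*, the enzyme that removes the lipid of Wnt, at -0.66 ± 0.34. Among receptors *Fzd4* was at -0.39 ± 0.18, *Lgr6*, an R-spondin receptor, at -0.60 ± 0.31, and *Fzd7* at -0.52 ± 0.27. The Wnt ligands summed to 221, 65.3 and 102 CPM in L-BAIBA loaded 1, 2 and 3, against 186, 328 and 89.1 CPM in vehicle loaded 1, 2 and 3. Their median was -0.84 without L-BAIBA loaded 1 and -0.03 without vehicle loaded 2.

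All 20 BMP and TGFβ ligands tested were negative, with a median of -0.43, and 32 of 34 receptors, Smads and antagonists, with a median of -0.29. *Bmp4*, a bone-inducing ligand, was the only one of these 54 at p under 0.05 (-0.47 ± 0.22), since the co-receptor *Rgma*, which was lower, was not in the list. *Bmp4* had 44.3, 27.1 and 32.9 CPM in L-BAIBA loaded bone and 45.2, 62.5 and 36.1 CPM in vehicle loaded bone. The groups overlapped, and without vehicle loaded 2 its value was -0.23, with p over 0.05 also without vehicle loaded 1 or L-BAIBA loaded 2 or 3. *Bmp7* was at -0.65 ± 0.31, *Bmp8a* at -0.71 ± 0.43, the signal transducers *Smad5* and *Smad3* at -0.39 ± 0.18 and -0.46 ± 0.22, and *Ltbp3*, which anchors latent TGFβ in matrix, at -0.61 ± 0.31. The ligands summed to 2080, 1200 and 1530 CPM in L-BAIBA loaded 1, 2 and 3, against 2060, 2940 and 1440 CPM in vehicle loaded 1, 2 and 3. Their median was -0.67 without L-BAIBA loaded 1 and -0.19 without vehicle loaded 2. *Bmp15*, an oocyte growth factor of the same family that was not in the list and is named after its values were seen, was among the 30 lower genes, with 0.159, 0.124 and 0.258 CPM in L-BAIBA loaded bone and 0.302, 0.782 and 0.843 CPM in vehicle loaded bone (-1.75 ± 0.80), and kept p under 0.05 only without vehicle loaded 1 when a loaded library was left out.

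Most genes known to respond to load in other studies were negative. Of 16 tested, 13 were negative (median -0.18, and 0.21 without vehicle loaded 2 or -1.20 without L-BAIBA loaded 1). *Bdkrb2* was the only member at p under 0.05, and part of this list came from the study's own calls. Of 24 genes of bradykinin, prostaglandin and nucleotide signalling, 16 were negative (median -0.10). *Ace*, which degrades bradykinin, was lower at p under 0.05 beside *Bdkrb2*, with 182, 107 and 113 CPM in L-BAIBA loaded bone and 195, 258 and 143 CPM in vehicle loaded bone (-0.57 ± 0.26), and at -0.33 without vehicle loaded 2, with p over 0.05 also without vehicle loaded 1 or L-BAIBA loaded 2 or 3. *Ptgis*, prostacyclin synthase, was at -0.43 ± 0.28.

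Axon growth and guidance genes, some of which osteoblast-lineage cells use to attract or repel nerves, were negative in 38 of 51 (median -0.22). *Sema3b*, a secreted semaphorin, was the only one of these 51 at p under 0.05, since *Rgma* and *Efna3*, both lower, were not in the list. *Sema3b* had 28.2, 18.1 and 18.2 CPM in L-BAIBA loaded bone and 26.2, 41.3 and 25.8 CPM in vehicle loaded bone (-0.54 ± 0.22, with p over 0.05 without vehicle loaded 2 or L-BAIBA loaded 2 or 3). *Unc5b*, a netrin receptor, was at -0.54 ± 0.25, *Ptprs*, a receptor phosphatase, at -0.46 ± 0.23 and *Sema6d* at -0.41 ± 0.21. *Ptprs* had 208, 244 and 228 CPM in L-BAIBA loaded bone and 269, 345 and 323 CPM in vehicle loaded bone, and its groups did not overlap. Of 125 ion channel subunits, 81 were negative (median -0.12), and *Kcnmb4* was the only one at p under 0.05. Summed over the list, L-BAIBA loaded bone had 1750, 1830 and 1780 CPM and vehicle loaded bone 1910, 2050 and 1860 CPM, without overlap. These sums, too, are given after their values were seen. *Kcnk2*, the mechanosensitive channel TREK-1, was at -0.37 ± 0.18 and *Kcnj15*, an inward rectifier, at -0.55 ± 0.27. In the IGF axis, 13 of 19 were negative (median -0.14), with *Irs1*, a substrate of the receptor, at -0.34 ± 0.22.

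Matrix remodelling genes included 2 of the smaller p values. *Adamts14*, which trims procollagen, had 30, 18.7 and 18.4 CPM in L-BAIBA loaded bone and 31.9, 46 and 31.7 CPM in vehicle loaded bone, without overlap (-0.72 ± 0.25). *Adamts18*, a protease of the same family, had 11.8, 8.71 and 7.48 CPM in L-BAIBA loaded bone and 14.7, 23.7 and 9.60 CPM in vehicle loaded bone (-0.80 ± 0.30). The overlap in *Adamts18* was between L-BAIBA loaded 1 and vehicle loaded 3. Without vehicle loaded 2 *Adamts14* was at -0.52 (p over 0.05) and *Adamts18* at -0.40, and both missed p under 0.05 also without L-BAIBA loaded 2 or 3. These were the only members at p under 0.05 of 22 metalloproteinases and inhibitors, of which 19 were negative (median -0.19). *Mmp14*, the membrane collagenase osteocytes need for their processes, was at -0.50 ± 0.33 and *Mmp23* at -0.37 ± 0.20. Of 38 collagen chains, 33 were negative (median -0.23), with *Col25a1*, a transmembrane collagen, at p under 0.05 (-0.50 ± 0.22, with p over 0.05 without vehicle loaded 1 or 2 or L-BAIBA loaded 2 or 3) and *Col20a1* at -0.50 ± 0.25.

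Enzymes of valine, thymine and BAIBA metabolism, a list that covers D-BAIBA as well as the L-BAIBA given, were divided evenly, with 12 positive and 14 negative (median -0.02). *Mcee*, methylmalonyl-CoA epimerase of propionate breakdown, was the only one at p under 0.05, with 16.3, 14.3 and 13.7 CPM in L-BAIBA loaded bone and 9.11, 11.7 and 10.7 CPM in vehicle loaded bone, without overlap (0.49 ± 0.21, with p over 0.05 in every fit that left out a loaded library other than vehicle loaded 2). *Bckdhb*, a subunit of the branched-chain keto acid dehydrogenase, had 10.2, 8.34 and 8.44 CPM in L-BAIBA loaded bone and 10.4, 14.9 and 10.5 CPM in vehicle loaded bone (-0.41 ± 0.20). *Upb1*, β-ureidopropionase, which forms BAIBA from thymine, was at 0.71 ± 0.41, and *Agxt2*, which breaks D-BAIBA down, at 1.61 ± 1.22. *Agxt2* had 1.91, 0.311 and 0.387 CPM in L-BAIBA loaded bone and 0.241, 0.241 and 0.259 CPM in vehicle loaded bone, so its value came mostly from L-BAIBA loaded 1.

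Genes of fatty acid oxidation and PPAR targets, which BAIBA is known to raise in fat and liver, had the median of all genes, -0.01, with 12 of 25 positive and no member at p under 0.05. *Acadl*, a long-chain acyl-CoA dehydrogenase, had 80.5, 90.2 and 92.9 CPM in L-BAIBA loaded bone and 80.3, 70.8 and 80.3 CPM in vehicle loaded bone (0.19 ± 0.13). Of 29 antioxidant genes, 20 were positive (median 0.15), with *Gpx1* at 0.32 ± 0.23 and *Gpx4*, both glutathione peroxidases, at 0.24 ± 0.18. Their sums did not overlap, with 5340, 5290 and 5030 CPM in L-BAIBA loaded bone and 4580, 4430 and 4680 CPM in vehicle loaded bone. Sums were taken for every gene list with counts, and the groups overlapped in all but antioxidant genes, ion channel subunits and the 4 genes the study names. The antioxidant sums are given after their values were seen. Respiratory chain subunits encoded in the nucleus were positive in 68 of 77 (median 0.15), with *Ndufv2* of complex I at 0.27 ± 0.15. Cytosolic ribosomal protein genes were positive in 81 of 94 (median 0.18), but L-BAIBA loaded 1 held 47000 CPM of them, against 30700 in each of the other L-BAIBA loaded libraries and 29000, 34300 and 29800 in the vehicle loaded libraries. Without L-BAIBA loaded 1 their median was -0.02. None of these genes was at p under 0.05.

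Several gene groups were nearly uniform in sign without any member at p under 0.05. Immediate early genes, induced by strain and by handling of tissue, were negative in 17 of 19 (median -0.29), with *Fos* at -0.33 ± 0.23 and *Fosb* at -0.43 ± 0.31. Circadian clock genes were negative in 18 of 19 (median -0.32). *Clock*, a core activator, had 51.8, 48.7 and 50.3 CPM in L-BAIBA loaded bone and 54.5, 81.4 and 56.7 CPM in vehicle loaded bone, without overlap (-0.35 ± 0.17). *Per3* was at -0.31 ± 0.18, also without overlap, and *Rora*, a nuclear receptor of the clock, at -0.56 ± 0.31. All 32 cell cycle genes were positive (median 0.30), with *Tyms*, thymidylate synthase, at 0.45 ± 0.21, *Bub1* at 0.45 ± 0.23, *Cdk1* at 0.40 ± 0.21 and *Birc5* at 0.37 ± 0.21.

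These groups moved with the libraries, as did erythroid genes among the markers of marrow cells. Cell cycle genes summed to 4360, 9530 and 9130 CPM in L-BAIBA loaded 1, 2 and 3, against 6340, 4550 and 7690 CPM in vehicle loaded 1, 2 and 3. Erythroid genes showed the same order of libraries, with 3380, 8920 and 8110 CPM in L-BAIBA loaded bone, against 5490, 3680 and 6760 CPM in vehicle loaded bone. Immediate early genes were lowest in L-BAIBA loaded 2 and highest in vehicle loaded 2, with 22200, 10600 and 13900 CPM in L-BAIBA loaded bone, against 22200, 24800 and 12000 CPM in vehicle loaded bone. So were clock genes, with 2000, 827 and 894 CPM in L-BAIBA loaded bone, against 1840, 2280 and 847 CPM in vehicle loaded bone. In all 4 groups of genes L-BAIBA loaded 1 and vehicle loaded 1 and 2 lay on the same side of L-BAIBA loaded 2 and 3 and vehicle loaded 3. Without L-BAIBA loaded 1 the medians were 0.57 for cell cycle, 0.70 for erythroid, -0.73 for immediate early and -0.73 for clock genes, and without vehicle loaded 2 they were 0.14, 0.16, -0.04 and -0.12. B lineage genes did not show this division, with 622, 635 and 598 CPM in L-BAIBA loaded bone, against 777, 650 and 603 CPM in vehicle loaded bone. The part of marrow cell content in the values of the 4 groups was not tested.

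Of the erythroid genes, all 11 tested were positive (median 0.35). *Klf1*, the erythroid transcription factor, was at 0.43 ± 0.40 and *Alas2*, of haem synthesis, at 0.26 ± 0.30. Of 16 neutrophil genes, 14 were positive (median 0.20), and the list summed to 18400, 26200 and 27500 CPM in L-BAIBA loaded bone and 23100, 15200 and 20500 CPM in vehicle loaded bone. *S100a8* did not overlap between the groups (0.46 ± 0.29). Interferon-induced genes were positive in 21 of 24 (median 0.19), and replication-dependent histones in 37 of 56 (median 0.07), with *Hist4h4* at 1.33 ± 0.69 and none at p under 0.05. Read pairs that fit several nearly identical histone genes were left out, since the counting took only pairs that mapped to a single place. The libraries were made from poly(A) RNA, so histone RNA without a poly(A) tail is largely left out as well.

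Markers of vessels and nerve also followed the libraries. Of 15 endothelial genes, 10 were negative (median -0.10), and *Robo4*, a vessel guidance receptor, was at p under 0.05 (-0.42 ± 0.18), with 56.6, 42.8 and 45.7 CPM in L-BAIBA loaded bone and 79.6, 65.6 and 47.9 CPM in vehicle loaded bone, and at -0.22 without vehicle loaded 1, with p over 0.05 also without vehicle loaded 2 or L-BAIBA loaded 2 or 3. The 10 smooth muscle and pericyte genes had a median of -0.06, and summed to 1690, 541 and 586 CPM in L-BAIBA loaded bone, against 1180, 1420 and 650 CPM in vehicle loaded bone. Without L-BAIBA loaded 1 their median was -1.0. The median of the Schwann cell and nerve list was -0.10, and -0.93 without that library. Medians of the osteoclast (-0.05), macrophage (0.07), B lineage (-0.13), T and NK (0.21) and skeletal muscle (0.03) lists rested on no member at p under 0.05.

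**Figure D3:**
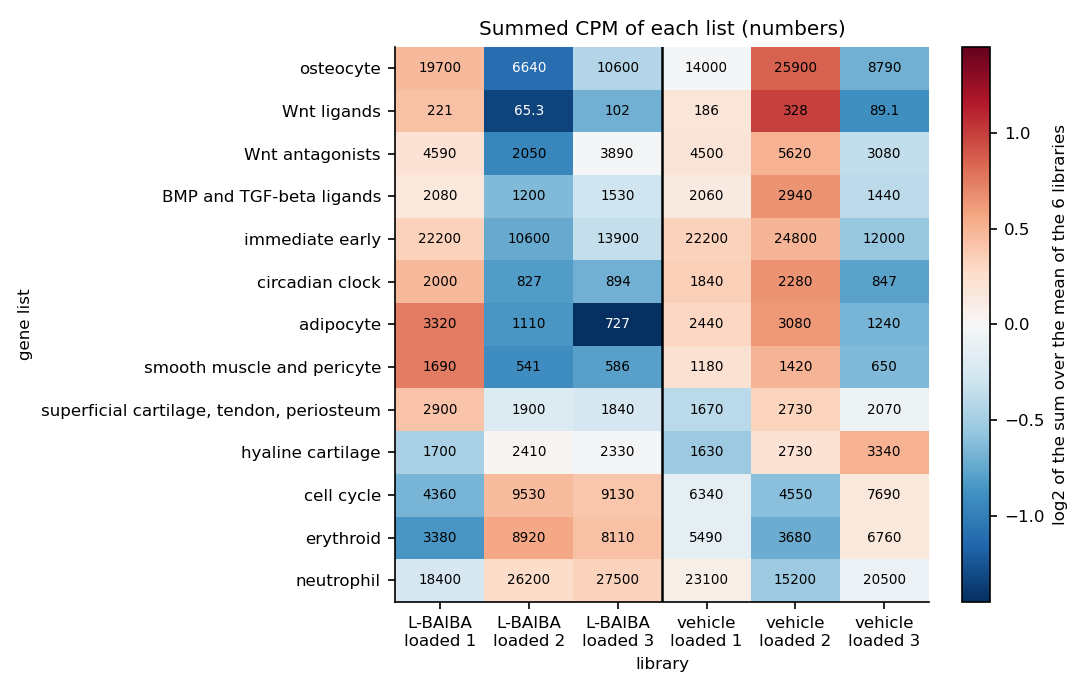
Summed CPM of 13 gene lists (numbers in the cells) in the 3 L-BAIBA loaded libraries (left) and the 3 vehicle loaded libraries (right), with colour for the log2 of each sum over the mean of the 6 libraries. L-BAIBA loaded 1 lies with vehicle loaded 1 and 2 in most lists, such as osteocyte genes (19700, 14000 and 25900 CPM), and L-BAIBA loaded 2 and 3 with vehicle loaded 3 (6640, 10600 and 8790 CPM).

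**Figure D4:**
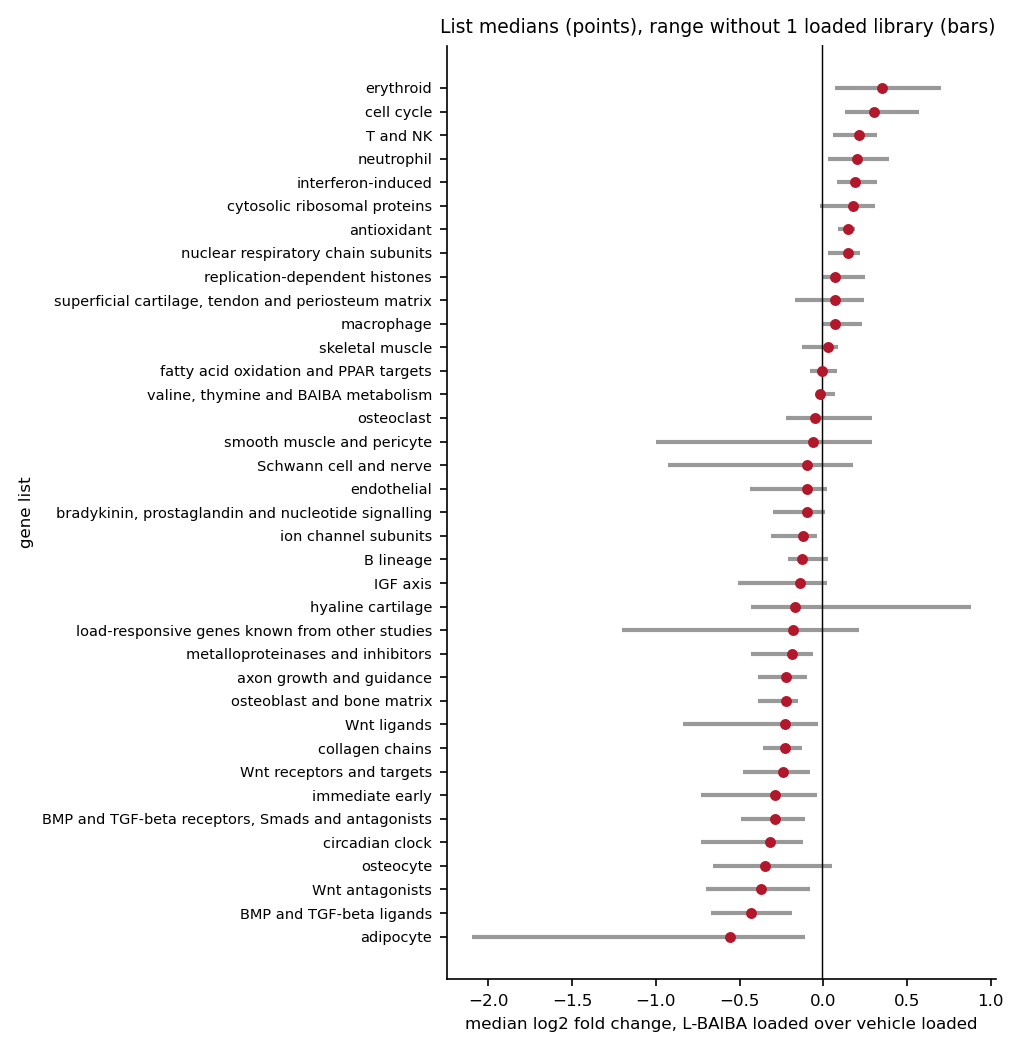
Median log2 fold change of L-BAIBA loaded over vehicle loaded bone for the gene lists other than the 4 genes the study names (red points, x axis), with the range of that median when 1 of the 6 loaded libraries was left out (grey bars) and a line at the median of all genes, -0.01. Among the lists drawn, bars are widest for adipocyte (-2.10 to -0.11), load-responsive (-1.20 to 0.21), smooth muscle (-1.0 to 0.29) and hyaline cartilage genes (-0.43 to 0.88).

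The same comparison in the nonloaded tibiae, mostly of the same mice, asks which differences went with load. There, 1437 genes were at p under 0.05 between L-BAIBA nonloaded and vehicle nonloaded bone (9.23%, or 2.86% with an absolute log2 fold change over 1) and none at an adjusted p under 0.05. Of the 8 genes higher in L-BAIBA loaded bone, 6 had the same sign in nonloaded bone and 4 were also at p under 0.05 there, namely *Prg4*, *Cilp*, *Naa11* and *Khdc1a*. *Prg4* had 2.96, 23.2 and 23.1 CPM in L-BAIBA nonloaded bone and 3.05, 4.31 and 2.78 CPM in vehicle nonloaded bone (2.29 ± 0.63, p under 0.05), and *Cilp* had 1.78, 14.5 and 5.00 CPM in L-BAIBA nonloaded bone and 1.28, 4.90 and 0.618 CPM in vehicle nonloaded bone (1.65 ± 0.74, p under 0.05). *Naa11* had 1.33, 0.273 and 1.22 CPM in L-BAIBA nonloaded bone and 0.00, 0.131 and 0.103 CPM in vehicle nonloaded bone (3.44 ± 1.05, p under 0.05). The difference between loaded and nonloaded effects was -0.57 ± 0.86 for *Prg4*, 0.48 ± 1.06 for *Cilp*, -0.89 ± 1.37 for *Naa11* and -0.27 ± 1.09 for *Khdc1a*, each with p over 0.05 and an error wide enough for a difference of either sign.

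Of the 30 genes lower in L-BAIBA loaded bone, 22 had the opposite sign in nonloaded bone, and for 17 the difference between the effects was at p under 0.05 (1028 genes in all, 6.6%, or 2.63% with an absolute log2 fold change over 1, and none at an adjusted p under 0.05, smallest 0.72). The loaded effect that named these genes is a part of this difference. The share of genes with the same or the opposite sign was not counted over all genes, and several lists given below also had opposite signs. The fit does not take into account that tibiae shared mouse pools, and limma with the pool as a random block put 2181 genes at p under 0.05 and none at an adjusted p under 0.05, smallest 0.27. *Tmem200b* had 4.14, 5.35 and 3.78 CPM in L-BAIBA nonloaded bone and 4.34, 5.10 and 3.30 CPM in vehicle nonloaded bone (0.07 ± 0.26, p over 0.05), a difference of -1.18 ± 0.37 (p under 0.05). For *Plekhh1* the difference was -1.42 ± 0.43 (p under 0.05), for *Mir23a* -1.34 ± 0.52 (p under 0.05) and for *Tfap2e* -2.76 ± 0.96 (p under 0.05), while for *Bdkrb2* it was -2.81 ± 1.33 (p over 0.05). In all 5 genes vehicle loaded bone had the highest of the 4 group means. *Bmp15* had 1.48, 0.601 and 2.00 CPM in L-BAIBA nonloaded bone and 0.428, 0.0653 and 0.309 CPM in vehicle nonloaded bone, opposite to its loaded values, with a difference of -4.03 ± 1.09 (p under 0.05).

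Several lists also had opposite signs in loaded and nonloaded bone. The median of osteocyte genes was -0.35 in loaded and 0.68 in nonloaded bone, that of BMP and TGFβ ligands -0.43 and 0.46, that of immediate early genes -0.29 and 0.47, that of clock genes -0.32 and 0.39, and that of cell cycle genes 0.30 and -0.42. Some markers of marrow moved with the cell cycle genes. The erythroid median was 0.35 in loaded and -0.57 in nonloaded bone, that of neutrophil genes 0.20 and -0.18, and that of T and NK genes 0.21 and -0.14. Medians of B lineage (-0.13 and -0.43) and macrophage genes (0.07 and 0.02) kept their sign. The part of marrow cell content in these differences was not tested. Other lists kept their sign, such as hyaline cartilage (-0.17 in loaded and -1.19 in nonloaded bone), adipocyte (-0.56 and -0.41), collagen (-0.23 and -0.11) and osteoblast genes (-0.22 and -0.10). The difference of effects was negative for all 20 BMP and TGFβ ligands (median -0.87, with 7 at p under 0.05), all 19 immediate early genes (-0.80, with 5) and all 19 clock genes (-0.70, with 2), and positive for all 32 cell cycle genes (0.69, with 12) and all 11 erythroid genes (0.91, with 2), against a median of -0.01 over all genes. The mice of vehicle loaded 2 gave no nonloaded library, and those of vehicle nonloaded 3 no loaded library. Without vehicle loaded 2, the loaded medians of BMP and TGFβ ligands and of immediate early genes were -0.19 and -0.04. List medians of the difference were not recomputed with a library left out. For *Phex* the difference was -1.68 ± 0.49 (p under 0.05), with 884, 783 and 589 CPM in L-BAIBA nonloaded bone and 459, 338 and 390 CPM in vehicle nonloaded bone. For *Clock* it was -0.94 ± 0.24 (p under 0.05), with 60.9, 69.1 and 63.0 CPM in L-BAIBA nonloaded bone and 45.8, 37.3 and 45.5 CPM in vehicle nonloaded bone. For *Bmp4* it was -1.11 ± 0.31 (p under 0.05), with 51.2, 46 and 42.3 CPM in L-BAIBA nonloaded bone and 31.7, 31.2 and 26.4 CPM in vehicle nonloaded bone. In these 3 genes the nonloaded groups did not overlap, and L-BAIBA nonloaded bone was the higher. Superficial cartilage genes had medians of 0.07 in loaded and 0.56 in nonloaded bone.

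The L-BAIBA effect in loaded bone after a single bout of load was measured in a separate experiment with a shorter exposure to L-BAIBA, 5 days, so that the number of bouts and the length of treatment cannot be told apart. Of the 38 genes, 34 were tested there. The 6 higher genes tested were all negative after a single bout, 3 of them at p under 0.05 (*Naa11*, *E230029C05Rik* and *2810047C21Rik1*), and of the 28 lower genes tested 16 were negative and 12 positive, with *Lep* (-1.51 ± 0.60, p under 0.05) and *Btbd16*, a BTB domain gene also named after its values were seen (-1.63 ± 0.60, p under 0.05), at p under 0.05 in the same direction. *Prg4* had 1.99, 1.87 and 1.56 CPM in L-BAIBA loaded bone and 3.06, 3.03 and 2.66 CPM in vehicle loaded bone after a single bout (-0.69 ± 0.54, p over 0.05), and the effect after 2 weeks exceeded it by 2.37 ± 0.90 on the log2 scale (p under 0.05). *Cilp* fell under the filter on low counts in that experiment. *Naa11* had 0.260, 0.433 and 0.189 CPM in L-BAIBA loaded bone and 1.45, 0.428 and 0.718 CPM in vehicle loaded bone after a single bout, and differed between the experiments by 4.03 ± 1.02 (p under 0.05). No gene of 15188 passed an adjusted p under 0.05 for this difference with the quasi-likelihood test (1529 at p under 0.05, 10.1%, or 3.57% with an absolute log2 fold change over 1), and 16 did with DESeq2. The single-bout experiment alone had 2929 genes at p under 0.05 (18.9% of 15500, or 5.97% with an absolute log2 fold change over 1) and none at an adjusted p under 0.05.

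**Figure D5:**
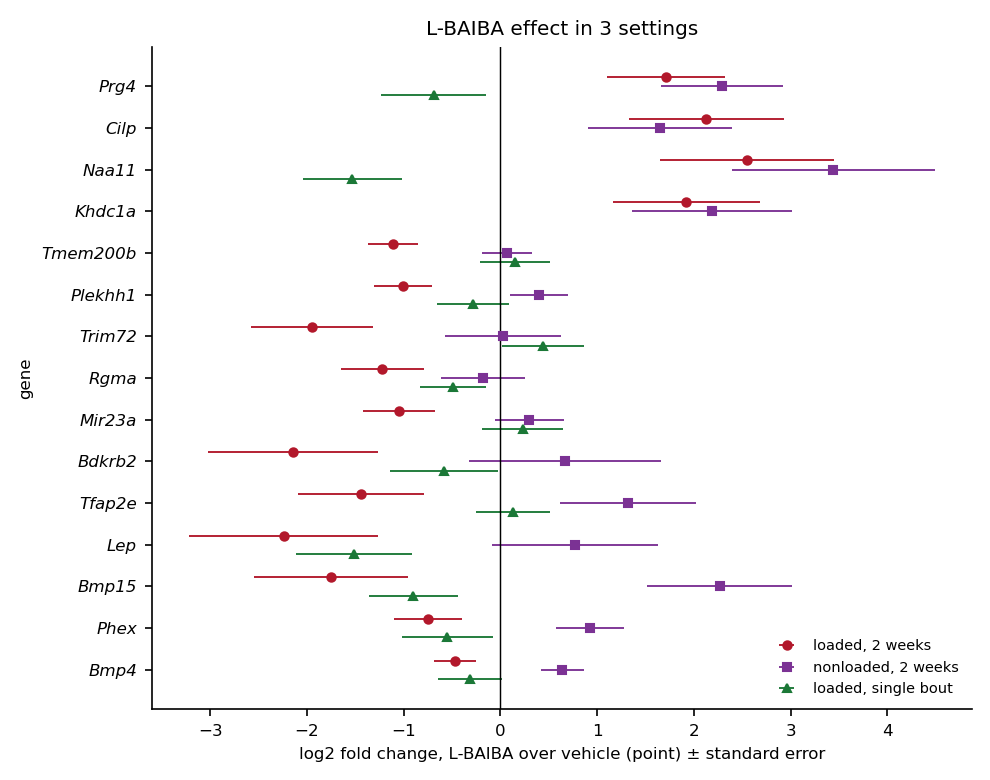
Log2 fold change of L-BAIBA over vehicle (x axis, points) with its SE (bars) for 15 genes in loaded bone after 2 weeks (red circles), nonloaded bone after 2 weeks (purple squares) and loaded bone after a single bout (green triangles, absent where not tested). *Prg4*, *Cilp*, *Naa11* and *Khdc1a* are positive in both 2-week comparisons, whereas *Phex*, *Bmp4* and *Bmp15* are negative in loaded and positive in nonloaded bone.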

How the data were processed

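Poly(A) RNA of loaded and nonloaded tibiae was sequenced in pools of 2 mice. The authors deposited counts per refSeq gene, made with STAR 2.5.2b (mm10, per the submitters' processing notes) and featureCounts (Subread 1.5.1), which took reverse-stranded pairs that mapped to a single place with a quality of at least 10. They kept genes by CPM over 0.5. Their own comparison columns (fold changes, p-values, FDR) and 23 columns of log2 normalized values were not used here.

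From the deposited counts, 15576 of 15962 genes with CPM over 0.5 in at least 4 of the 12 libraries of the 2-week experiment were scaled by TMM. All 4 groups were fitted together in R 4.3.3 with edgeR 4.0.16 (quasi-likelihood test, two-sided, Benjamini-Hochberg over all genes), since 3 libraries a side give few degrees of freedom, and the loaded contrast was taken. The SE is the absolute log2 fold change divided by the square root of the F statistic. CPM values are TMM-scaled. The interaction with loading was tested in the same fit, and the difference from the single-bout experiment in a fit of all 23 libraries. DESeq2 1.42.0, the likelihood ratio test, limma 3.58.1 (log2 CPM, prior count 2, mouse pool as a random block), other scaling, no filter, a replicate block, only the loaded libraries and leaving out each library were alternatives. The procedure was tested on simulated data.

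Loaded libraries held 6368289 to 17489087 counts, and replicates are pools, so p-values concern the spread between pools. The main fit treated all 12 libraries as independent, although most mice contributed their right and left tibiae to separate libraries. Part of its degrees of freedom thus repeats the same mice, which bears on the p-values of the loaded contrast too. The correlation within a pool was 0.447 in limma. Same-numbered libraries share no mice across treatments, and correlations of their deviations (-0.0129, -0.466 and 0.364) did not pair them. Named genes are the 10 with the smallest p in each direction among those whose unadjusted p was under 0.05 and whose log2 fold change was over 1 in size, the 4 genes the study names for this comparison, up to 4 members with the smallest p of each gene list, and cell type markers, of which 2 are not reported here. Members and lists were chosen with earlier results of these data known. Names, mm10 coordinates and miRNA sequences come from the files and RefSeq.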

Additional observations from a re-analysis of the deposited data

How the results depend on the processing

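No gene passed an adjusted p under 0.05 in the loaded comparison, or in the difference between loaded and nonloaded effects, under any alternative run. Over the difference between 2 weeks and a single bout, DESeq2 called 16 genes and every other alternative 0. The 38 genes at p under 0.05 with an absolute log2 fold change over 1 became 70 with the likelihood ratio test (26 higher, 44 lower), 8 with an absolute log2 fold change over 2, 233 without a fold threshold, and 17 to 291 with a loaded library left out. With the replicate block the count was 45, of which 31 were among the 38, and the numbers do not pair the libraries. With only the 6 loaded libraries it was 37 (14 higher, 23 lower), of which 17 were among the 38. In these the cause was not tested. Of the 38 genes, 16 averaged under 1 CPM, where few reads make a value imprecise.

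Among named genes, 1188 recomputed values kept their sign and side of p 0.05, 208 lost and 80 gained p under 0.05, and 21 changed sign, all in genes not at p under 0.05. With a loaded library left out, log2 fold changes ranged from -0.33 to 1.30 for *Aspn*, -0.58 to 0.24 for *Postn*, -0.86 to 1.66 for *Acan*, -0.72 to 1.96 for *Col9a2*, -1.65 to 0.41 for *Dmp1*, -0.73 to 0.08 for *Mepe*, -1.45 to 0.42 for *Pdpn*, -0.52 to 0.11 for *Col1a1*, -0.57 to 0.06 for *Bglap*, -0.09 to 0.30 for *Ibsp* and -2.68 to 0.09 for *Wnt1*. *Acan* was 0.25 with the replicate block and 0.39 with limma and a random block for mouse pools, and *Col9a2* 0.10 and 0.60.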
